A study of Mus musculus with 5 samples.

Results

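Transcription factors that bind DNA at defined sequences were examined as a group in RAW264.7 cells, a mouse macrophage line, under LPS and under LPS with compound 13. The group held the protein-coding genes of the deposited table whose molecular function annotation includes DNA-binding transcription factor activity. Of 1489 listed genes, 59 met this description. The Irf, Stat, Ifi, Trim and Parp families and a set of early response and interferon-linked factors were left out by rule, which removed 9 genes, among them Atf3, Bcl3, Egr1, Ets2, Irf9 and Myc, and left 50. The rule itself reads annotation and names only, not expression values, but it was set with earlier results of these data known. The annotation is wider than the name, since 9 of the 50 encode proteins better known in other roles. These are the GTPase regulator Arap1, the actin-associated Gas7, the lysosomal membrane protein Glmp, the RNA helicase Znfx1, the receptor Notch1, the corepressor Cbfa2t3, the deubiquitinase-related Fam105a (Otulinl in RefSeq), and Id1 and Id3, which pair with DNA-binding partners and do not bind DNA themselves.

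The table came from 5 RNA libraries, of which 2 were control cells given PBS, 2 were the LPS model and 1 was LPS with compound 13, all of unmodified RAW264.7 cells. LPS, a bacterial cell wall component, was used at 0.1 μg/ml in the cell model and compound 13 (5-chloro-6-hydroxymellein) at 10 μM, with collection after 24 h, although the sequencing methods do not repeat these doses. The library with compound carries only the code AMN31-1 as its title, and its treatment label speaks of anti-inflammatory compounds in the plural and names none, so that its reading as compound 13 rests on the methods of the study. No source states that replicates were separate cultures, so every p-value reflects the spread between libraries, which may be technical.

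Macrophages sense LPS through the receptor TLR4, whose signalling activates NF-kB and the AP-1 factors of the Jun and Fos families within minutes to hours. A later layer of factors then adjusts metabolism, stress responses and the length of the inflammatory response. Transcription factor genes are often transcribed at far lower levels than the cytokine genes that they control.

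Depths recovered from the values were 16173080 to 17145500 reads per library. Of 10 macrophage markers 5 were listed, and among them Cd14, the LPS co-receptor, stood at 685 to 1395 FPKM, a level that divides fragments by exon length and library depth. The study took a p under 0.01 to define differential expression, but no source used here says whether genes entered the table by that rule, and nearly all of them differed between LPS model and control. Counts of higher and lower genes therefore describe this selection. In bulk RNA, fewer cells of a type cannot be told apart from less RNA per cell.

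Summed over the 50 genes, the level was 408 and 433 FPKM in the control libraries, 660 and 663 FPKM in the LPS model libraries and 631 FPKM with compound 13. As a share of the summed FPKM of all listed genes, this was 1.56% and 1.59%, then 1.04% and 1.04%, and 1.01%, so that the sum was higher under LPS and the share lower. Srebf2 led in both control libraries, nearly level with Junb in control 2 (70.9 against 70.3 FPKM), and Junb led in the other 3. At least 1 FPKM in 2 libraries, or in the compound 13 library, was reached by 29 of the genes, and these were tested with limma on log2(FPKM + 1), a scale that understates the change of low genes. The remaining 21 were below this level and are described by their reads. Of the 29, 25 passed the filter in both control and both LPS model libraries, and Gata3, Smad3, Tfeb and Zfp810 did not. Smad3 and Zfp810 passed only through the control libraries, and Gata3 only through LPS-treated ones. Their entry thus depended on the direction of change, so that their p-values give no support, although they stay in the counts.

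With LPS, 17 of the 29 tested factors rose and 10 fell at an adjusted p under 0.05 (limma, Benjamini-Hochberg over 1053 genes), and Smad6 and St18 were not called. Over all tested genes 72.7% were called higher and 23.4% lower, beside 58.6% and 34.5% of the factors. The median log2 fold change was 0.67 over the factors and 0.96 over all tested genes. All of the 9 factors left out by the rule were called higher. Leaving them out thus lowered the share of factors called higher and raised the share called lower. The gap to all tested genes therefore depends in part on the rule. Quantile normalization and rescaling by the median of ratios both take rising and falling genes as balanced, and they shifted the median of all tested genes to 0.16 and 0.00 on the log2 scale. Both were computed from the listed genes only, most of which rose. A gene that rose less than most listed genes can therefore turn lower by construction. The factors called under these rescalings were 5 higher and 18 lower by the median of ratios, and 7 higher and 14 lower by quantiles. The share of reads that fell in listed genes was 8.0% and 8.21% in control libraries and 17.0% and 17.1% in LPS model libraries. Values below follow the deposited scaling, and genes whose direction turned on rescaling are named. A turn is a change of sign only. Under quantile normalization Arap1, Ddit3, Glmp, Id1 and Jun turned but were not called, nor were Ppard and Smad7 by the median of ratios. Under LPS stands for the LPS model libraries, and with compound 13 for the library of LPS and compound 13.

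**Figure D1:**
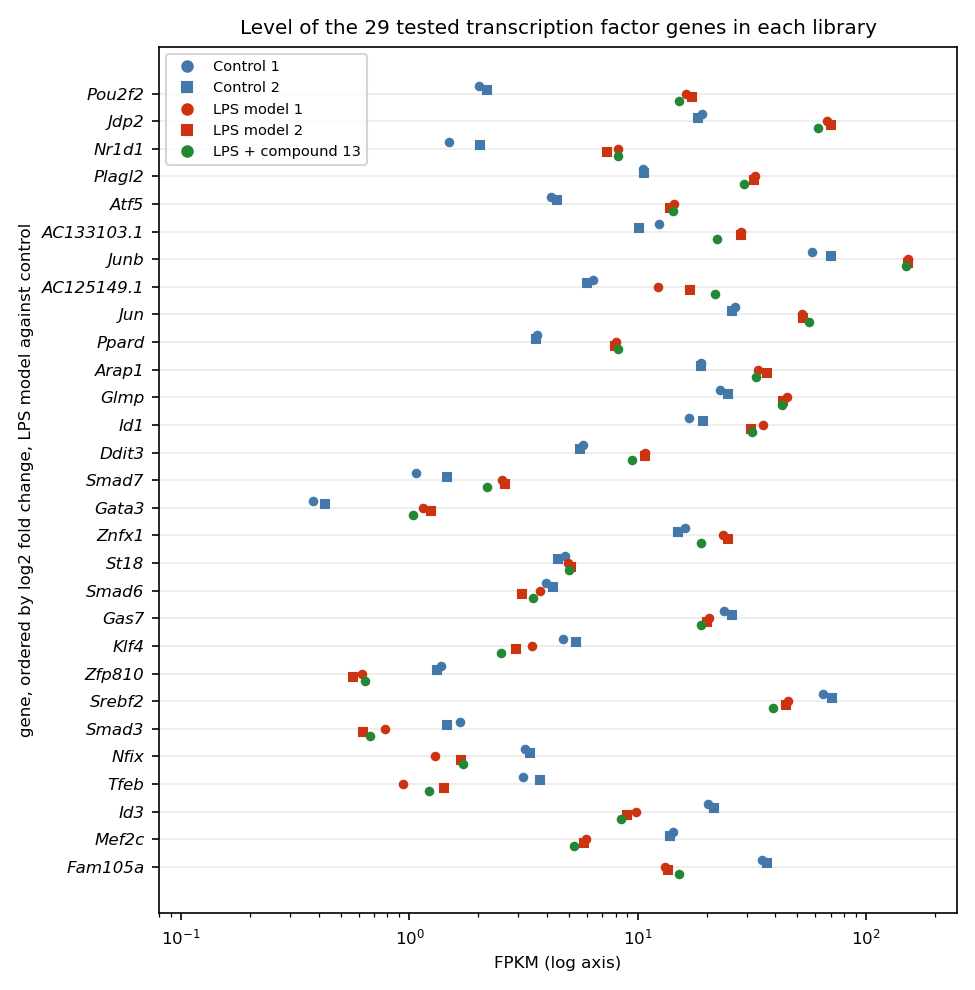
Level of each of the 29 tested transcription factor genes in FPKM (log axis), with 1 point per library and genes ordered by the log2 fold change of LPS model against control. Pou2f2 at the top went from 2.01 and 2.18 FPKM to 16.3 and 17.2 FPKM, and Fam105a at the bottom from 34.8 and 36.9 FPKM to 13.1 and 13.6 FPKM. Junb is the highest factor in the 3 LPS-treated libraries, at 149 to 152 FPKM.

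The AP-1 group is described first. AP-1 is a dimer of basic leucine zipper (bZIP) proteins, with Jun and Junb as activating subunits and Jdp2 as a partner that pairs with Jun proteins and represses AP-1 sites. Junb, the factor with the highest level in LPS-treated cells, stood at 58.1 and 70.3 FPKM in the control, 152 and 152 FPKM under LPS and 149 FPKM with compound 13. Its log2 fold change with LPS was 1.24 ± 0.09 (SE, limma adjusted p = 8.0e-05). Jun stood at 26.5 and 25.9 FPKM, then 52.1 and 52.9 FPKM, and 56.5 FPKM with compound 13. The rise of Jun was 0.97 ± 0.04 (SE) on the log2 scale (limma adjusted p = 9.5e-06). Jdp2 moved most of the 3, from 19.1 and 18.3 FPKM to 67.2 and 69.9 FPKM, with 61.8 FPKM under compound 13. Its log2 fold change was 1.82 ± 0.04 (SE, limma adjusted p = 2.5e-06), and the LPS model libraries were above both control libraries for all 3 genes, as for 73.7% of all tested genes (24% were below). All 3 rose at the deposited scaling, whereas Jun turned lower under both rescalings and Junb under quantile normalization. Under quantile normalization Jun was at −0.047 and was not called (limma adjusted p = 0.42). By the median of ratios Junb was not called (log2 fold change 0.035, limma adjusted p = 0.76). The ratio of Jdp2 to Jun within a library was 0.719 and 0.707 in the control, 1.29 and 1.32 under LPS and 1.09 with compound 13, so the repressing partner went from below Jun to above it, a relation that scaling by library does not touch.

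The promoter of Jdp2 is shown because its gene changed most in this group. In the 250 bases before its second RefSeq start site (GRCm38.p6, chr12:85599166-85599415, plus strand), which lie inside the gene as its first start site is further upstream, the capitals mark a match to the composite C/EBP-ATF letters 33 bases before the start.
Jdp2 promoter: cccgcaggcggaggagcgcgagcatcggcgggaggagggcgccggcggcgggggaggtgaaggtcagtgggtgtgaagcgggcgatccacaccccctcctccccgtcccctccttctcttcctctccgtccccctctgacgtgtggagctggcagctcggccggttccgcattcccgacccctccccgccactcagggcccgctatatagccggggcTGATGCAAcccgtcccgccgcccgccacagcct

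Stress-linked bZIP factors rose as well at the deposited scaling, and Ddit3 turned lower under both rescalings. Ddit3, known as CHOP, forms dimers with C/EBP proteins and is a late effector of the integrated stress response, in which phosphorylation of eIF2 alpha slows translation while ATF4 and its targets are made. Atf5 is a relative of ATF4 that is controlled by the same translational switch. Atf5 stood at 4.15 and 4.43 FPKM in the control, 14.5 and 13.9 FPKM under LPS and 14.3 FPKM with compound 13. Its log2 fold change with LPS was 1.52 ± 0.06 (SE, limma adjusted p = 9.1e-06). Ddit3 went from 5.78 and 5.60 FPKM to 10.8 and 10.8 FPKM, with 9.40 FPKM under compound 13. The rise of Ddit3 was 0.82 ± 0.05 (SE) on the log2 scale (limma adjusted p = 5.3e-05), and it was −0.035 under quantile normalization and −0.26 under the median of ratios. Within a library, the ratio of Atf5 to Ddit3 was 0.718 and 0.791 in the control and 1.34 and 1.29 under LPS, and 1.52 with compound 13. The leading factor of the pair was thus Ddit3 in the control and Atf5 in every LPS-treated library.

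Sequences before a start site of each gene are given to show which element letters they hold. Capitals mark a match to the NF-kB consensus 33 bases before the second start site of Atf5 (GRCm38.p6, chr7:44815659-44815908, minus strand) and the AP-1 letters 242 bases before the start of Ddit3 (GRCm38.p6, chr10:127290543-127290792, plus strand).
Atf5 promoter: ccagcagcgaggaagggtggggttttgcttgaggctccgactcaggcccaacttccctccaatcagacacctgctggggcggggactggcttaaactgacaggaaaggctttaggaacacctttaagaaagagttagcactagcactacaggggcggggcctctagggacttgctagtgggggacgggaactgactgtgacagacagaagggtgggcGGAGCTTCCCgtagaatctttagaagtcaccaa
Ddit3 promoter: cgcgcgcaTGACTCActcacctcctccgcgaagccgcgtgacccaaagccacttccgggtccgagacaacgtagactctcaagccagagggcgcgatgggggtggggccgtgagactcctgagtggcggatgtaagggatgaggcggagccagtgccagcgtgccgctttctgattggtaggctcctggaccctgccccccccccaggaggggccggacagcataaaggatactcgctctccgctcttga

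Other genes of the integrated stress response were read from a list of 28, of which 12 were in the table and 11 were tested, Atf5 and Ddit3 included. All 11 were called higher with LPS at the deposited scaling, beside 72.7% of all tested genes, whereas 5 of them turned lower by the median of ratios and 3 by quantile normalization. Their median log2 fold change was 0.95, beside 0.96 over all tested genes. Slc7a11, a subunit of the cystine importer, went from 5.48 and 5.19 FPKM to 41.7 and 44.6 FPKM. Asns, which makes asparagine, went from 25.4 and 28.6 FPKM to 42.7 and 43.4 FPKM and was among those that turned under both. Of 18 genes of the unfolded protein response of the endoplasmic reticulum, 0 were in the table, so that arm was not analysed here. With compound 13, 0 of the 11 were called against the LPS model (7.6% of all tested genes were called).

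The factor with the largest change was Pou2f2, also called Oct2, a POU homeodomain protein that binds the octamer motif and is best known from B lymphocytes. It stood at 2.01 and 2.18 FPKM in the control, 16.3 and 17.2 FPKM under LPS and 15.1 FPKM with compound 13. The log2 fold change with LPS was 2.52 ± 0.06 (SE, limma adjusted p = 2.7e-06). Plagl2, a zinc finger factor of the PLAG family, rose by 1.52 ± 0.04 (SE) on the log2 scale (limma adjusted p = 3.6e-06). Its levels were 10.5 and 10.7 FPKM, then 32.6 and 32.1 FPKM, with 29.1 FPKM under compound 13. For both genes the control libraries lay below all 3 LPS-treated libraries, as for 71% of all tested genes. Both stayed higher under either rescaling.

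Nuclear receptors are factors gated by small lipophilic ligands, and among them Nr1d1 and Ppard were tested. Nr1d1 encodes REV-ERB alpha, a heme-binding repressor of the circadian clock. It stood at 1.49 and 2.03 FPKM in the control, 8.17 and 7.29 FPKM under LPS and 8.15 FPKM with compound 13. The rise with LPS was 1.67 ± 0.12 (SE) on the log2 scale (limma adjusted p = 6.7e-05). Ppard, a receptor for fatty acids, went from 3.62 and 3.59 FPKM to 8.0 and 7.93 FPKM, with 8.17 FPKM under compound 13. Its log2 fold change was 0.96 ± 0.06 (SE, limma adjusted p = 3.6e-05) and −0.059 under the median of ratios. Both control libraries were below all 3 LPS-treated libraries for either receptor, as for 71% of all tested genes.

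**Figure D2:**
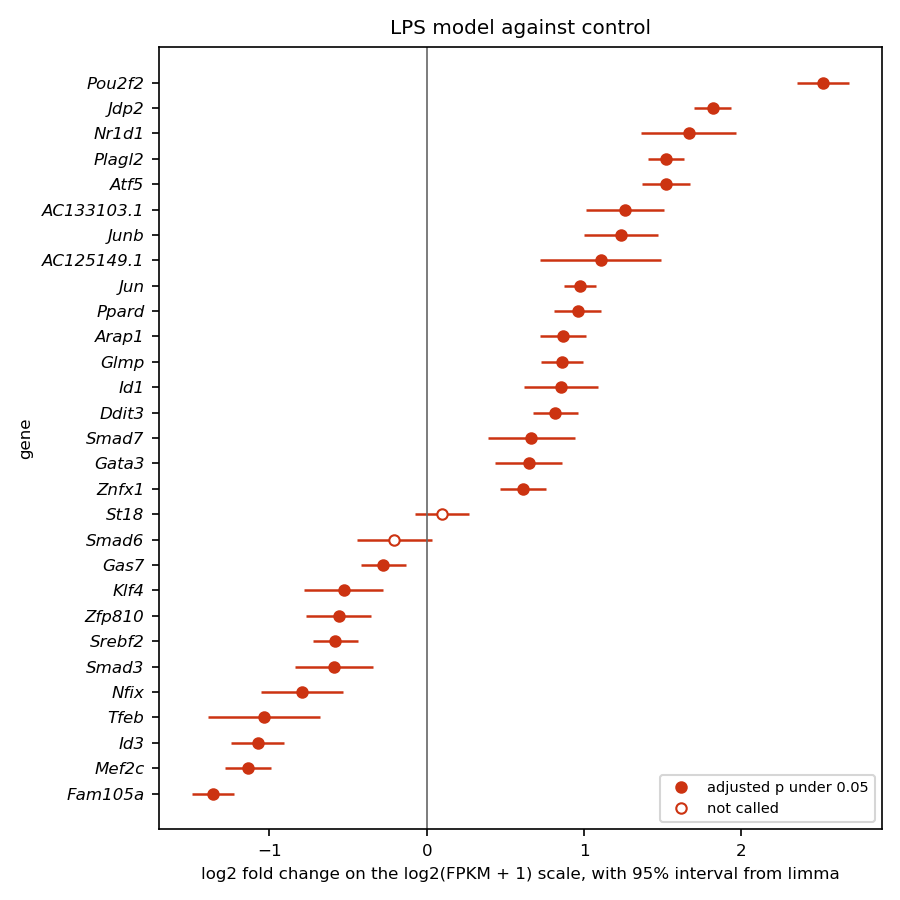
Log2 fold change of LPS model against control for the 29 tested factors, on the log2(FPKM + 1) scale, with 95% intervals from limma. Filled points passed an adjusted p of 0.05, which 17 higher and 10 lower factors did, and the open points are Smad6 and St18. Under the rescalings named in the text Arap1, Ddit3, Glmp, Id1, Jun, Junb, Ppard, Smad7, St18 and Znfx1 turned lower in at least 1 of them.

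ID proteins moved in opposite directions at the deposited scaling. They are helix-loop-helix proteins with no DNA-binding region that sequester E proteins, and BMP signals through SMAD proteins are their best known inducers. Id1 (chr2:152736251-152737410, GRCm38) stood at 16.8 and 19.2 FPKM in the control, 35.5 and 31.2 FPKM under LPS and 31.6 FPKM with compound 13. Id3 (chr4:136143497-136145755, GRCm38) stood at 20.3 and 21.6 FPKM, then 9.83 and 9.01 FPKM, and 8.40 FPKM with compound 13. The rise of Id1 was 0.86 ± 0.09 (SE) on the log2 scale (limma adjusted p = 0.00034) and Id3 fell by 1.08 ± 0.07 (SE, limma adjusted p = 3.7e-05). The direction of Id1 turned under both rescalings, whereas that of Id3 did not. Under quantile normalization Id1 was not called (limma adjusted p = 0.65). The ratio of Id1 to Id3, which no scaling by library alters, was 0.826 and 0.889 in the control, 3.61 and 3.47 under LPS and 3.76 with compound 13. Id3 was thus the more abundant of the pair in both control libraries and Id1 in all 3 LPS-treated ones.

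SMAD factors carry signals from receptors of the TGF-beta superfamily. Smad3 is activated by the TGF-beta receptor, and Smad6 and Smad7 are inhibitory members induced by the pathway. Smad3 fell from 1.67 and 1.46 FPKM to 0.783 and 0.625 FPKM, with 0.674 FPKM under compound 13. Its log2 fold change was −0.59 ± 0.10 (SE, limma adjusted p = 0.0020). Smad3 passed the filter only through the control libraries, so that this p-value gives no support. Smad7 went the other way at the deposited scaling, from 1.07 and 1.46 FPKM to 2.55 and 2.61 FPKM, with 2.19 FPKM under compound 13. The rise was 0.67 ± 0.11 (SE) on the log2 scale (limma adjusted p = 0.0019) and −0.11 under the median of ratios. Smad6 stood at 3.96 and 4.23 FPKM in the control and 3.72 and 3.13 FPKM under LPS, with 3.48 FPKM under compound 13, and was not called (limma adjusted p = 0.080), whereas it was called lower under both rescalings. The ratio of Smad7 to Smad3 was 0.641 and 1.00 in the control, 3.25 and 4.18 under LPS and 3.26 with compound 13.

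Of a list of 21 BMP and TGF-beta responsive genes, 8 were in the table and tested, and 5 of them were called higher and 2 lower with LPS, where 72.7% and 23.4% of all tested genes were. By the median of ratios 2 were called higher and 5 lower, and by quantile normalization 2 and 3. Tgfb1, the ligand, rose from 35.6 and 36.6 FPKM to 94.8 and 99.8 FPKM. Its type I receptor gene Tgfbr1 fell from 21.3 and 19.8 FPKM to 7.51 and 7.41 FPKM. With compound 13, 0 of the 8 were called, beside 7.6% of all tested genes.

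**Figure D3:**
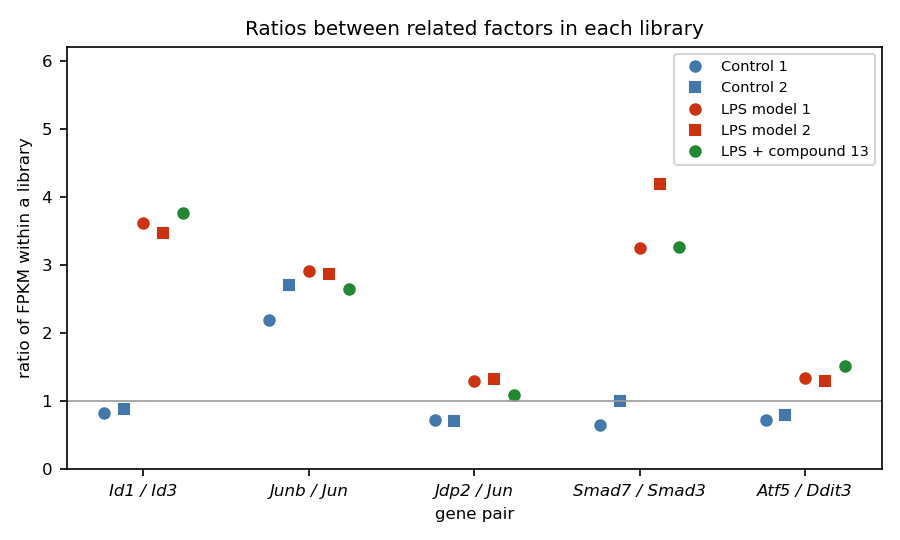
Ratio of FPKM between related factors within each library, with 1 point per library and a line at a ratio of 1. Id1 to Id3 went from 0.826 and 0.889 in the control to 3.61 and 3.47 under LPS, and Jdp2 to Jun from 0.719 and 0.707 to 1.29 and 1.32, whereas Junb to Jun was 2.19 and 2.71 in the control and 2.91 and 2.87 under LPS.

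Gata3, a zinc finger factor of T helper cells and luminal epithelium, was near the lower limit of what was tested. It had 25 and 29 reads in the control, 76 and 80 under LPS and 71 with compound 13, or 0.379 and 0.426, then 1.15 and 1.24, and 1.04 FPKM. The log2 fold change was 0.65 ± 0.08 (SE, limma adjusted p = 0.00071), which on this scale understates a ratio of means of 2.97. Gata3 passed the filter only through LPS-treated libraries, so that this p-value gives no support. Under quantile normalization and the median of ratios Gata3 kept its direction and was not called.

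The 10 factors that fell with LPS included Mef2c, Klf4, Tfeb and Srebf2, which belong to different families. Mef2c, a MADS-box factor of myeloid and muscle cells, stood at 14.3 and 13.8 FPKM in the control, 5.90 and 5.78 FPKM under LPS and 5.25 FPKM with compound 13. It fell by 1.14 ± 0.06 (SE) on the log2 scale (limma adjusted p = 1.8e-05). Klf4, a zinc finger factor of monocyte differentiation, went from 4.71 and 5.37 FPKM to 3.44 and 2.94 FPKM, with 2.51 FPKM under compound 13. Its log2 fold change was −0.53 ± 0.10 (SE, limma adjusted p = 0.0033). Tfeb, a helix-loop-helix activator of lysosomal and autophagy genes, went from 3.15 and 3.72 FPKM to 0.936 and 1.42 FPKM, with 1.21 FPKM under compound 13. It fell by 1.03 ± 0.14 (SE) on the log2 scale (limma adjusted p = 0.00086). Srebf2, the activator of cholesterol synthesis genes, was the highest factor in the control libraries, nearly level with Junb in control 2. It fell by 0.58 ± 0.06 (SE) on the log2 scale (limma adjusted p = 0.00022). Its levels were 64.7 and 70.9 FPKM, then 45.4 and 44.4 FPKM, and 39.1 FPKM with compound 13. The control libraries were above the LPS-treated ones in all 4 genes, as for 23.9% of all tested genes. None of the 4 changed direction on rescaling.

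The sequence before the third RefSeq start site of Mef2c (GRCm38.p6, chr13:83573357-83573606, plus strand), inside the gene, is given as a falling gene with a match to the searched AP-1 letters. Capitals mark it 137 bases before the start. The searched letters TGANTCA allow any base in the middle, which is A here, so that this is a loose match.
Mef2c promoter: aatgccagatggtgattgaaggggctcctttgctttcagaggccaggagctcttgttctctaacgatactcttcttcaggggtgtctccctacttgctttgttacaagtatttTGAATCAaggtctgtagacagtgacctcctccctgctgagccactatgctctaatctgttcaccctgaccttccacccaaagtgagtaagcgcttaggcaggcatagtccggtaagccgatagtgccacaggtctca

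Nfix, a nuclear factor I protein, fell from 3.22 and 3.36 FPKM to 1.29 and 1.67 FPKM, with 1.72 FPKM under compound 13 and a log2 fold change of −0.80 ± 0.10 (SE, limma adjusted p = 0.00072). Nfix lies 174139 bases from Junb on chromosome 8, and these neighbours moved in opposite directions at the deposited scaling (Junb turned lower under quantile normalization). The other neighbouring pairs with both genes tested had the same sign. These were Id1 and Plagl2 (log2 fold change 0.86 and 1.52) and Smad3 and Smad6 (−0.59 and −0.21, Smad6 not called). Zfp810, a C2H2 zinc finger gene, fell from 1.37 and 1.33 FPKM to 0.619 and 0.565 FPKM, with 0.637 FPKM under compound 13. The remaining 2 falling members are proteins with other main roles. Fam105a stood at 34.8 and 36.9 FPKM in the control, 13.1 and 13.6 FPKM under LPS and 15.2 FPKM with compound 13. It fell by 1.36 ± 0.05 (SE) on the log2 scale (limma adjusted p = 8.6e-06), the largest drop of the 29. Gas7 went from 23.8 and 25.8 FPKM to 20.4 and 20.2 FPKM, with 18.9 FPKM under compound 13, so that control and LPS libraries were apart by a small margin. It fell by 0.28 ± 0.06 (SE, limma adjusted p = 0.0047), and it was not called without LPS model replicate 2 (limma adjusted p = 0.052).

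The last rising members were also of mixed kind. Arap1 rose from 18.9 and 18.8 FPKM to 33.7 and 36.8 FPKM, with 32.9 FPKM under compound 13, and was lower under either rescaling (not called by quantile normalization). Glmp rose from 23.0 and 24.7 FPKM to 45.0 and 43.2 FPKM, with 42.8 FPKM under compound 13, and was lower under either rescaling too (again not called by quantile normalization). Znfx1, an interferon-inducible helicase that binds viral RNA, rose from 16.0 and 15.0 FPKM to 23.7 and 24.8 FPKM, with a log2 fold change of 0.61 ± 0.06 (SE, limma adjusted p = 0.00018), and was likewise lower under either rescaling. AC125149.1 and AC133103.1, on unplaced contigs, are annotated as SP140-like genes that can share reads with near-identical copies. AC125149.1 went from 6.39 and 5.96 FPKM to 12.3 and 17.0 FPKM, with 21.7 FPKM under compound 13, and AC133103.1 from 12.4 and 10.1 FPKM to 28.2 and 28.3 FPKM, with 22.2 FPKM. Since reads may be split between copies, their rises of 1.11 and 1.26 on the log2 scale (limma adjusted p = 0.00089 and 8.9e-05) are uncertain. Neither was called by the median of ratios (limma adjusted p = 0.94 and 0.33), nor AC125149.1 by quantile normalization (0.23). St18, a zinc finger factor of the Myt1 family, was at 4.79 and 4.47 FPKM in the control and 4.95 and 5.08 FPKM under LPS, with 4.97 FPKM under compound 13, and was not called (limma adjusted p = 0.21), whereas it was called lower under both rescalings.

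Compound 13 with LPS was then compared with the LPS model, a comparison that shares the LPS model libraries with the one above. None of the 29 factors was called (0 by limma at an adjusted p under 0.05), where 7.6% of all tested genes were. At an unadjusted p under 0.05, 2 were higher (Fam105a and AC125149.1) and 6 lower (Srebf2, Znfx1, Ddit3, AC133103.1, Plagl2 and Jdp2), beside 3.42% and 21.7% of all tested genes. The median log2 fold change was −0.07 over the factors and −0.08 over all tested genes. The lone library was below both LPS model libraries for 16 of the 29 factors, or 55.2%, as for 62.5% of all tested genes, between them for 7 and above both for 6.

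For 24 of the 29 factors, the 95% interval of the log2 difference lay within 0.5 of zero on either side. This held for 82.8% of the factors and 69.8% of all tested genes. The intervals of AC125149.1, AC133103.1, Klf4, Smad7 and Znfx1 reached further. Among the stress and helix-loop-helix factors, the interval ran from −0.18 to 0.20 for Atf5, from −0.35 to −0.01 for Ddit3 and from −0.36 to 0.21 for Id1. That of Gata3 ran from −0.37 to 0.15 and that of Klf4 from −0.56 to 0.05. These intervals assume that the lone library varies like the replicated ones.

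Znfx1 had the smallest p of the 29. It had 3218 and 3281 reads under LPS and 2658 with compound 13, or 23.7, 24.8 and 18.9 FPKM, while the control libraries stood at 16.0 and 15.0 FPKM. The log2 difference was −0.34 ± 0.07 (SE) with an unadjusted p of 0.0043 and a limma adjusted p of 0.055. It was called when only the groups compared were fitted (limma adjusted p = 0.029), with robust moderation (0.048), without control replicate 1 (0.029) or control replicate 2 (0.028), and by limma-voom on recovered reads (0.013). It was not called by the median of ratios (log2 difference −0.18, limma adjusted p = 0.20) or quantile normalization (−0.21, adjusted p = 0.24), with the replicate block (0.11), or without LPS model replicate 1 (0.23) or replicate 2 (0.29), nor with another pseudocount, filter or no trend (0.060 to 0.092). AC133103.1 was also called lower when only the groups compared were fitted and without either control replicate, and Srebf2 without control replicate 1 (limma adjusted p = 0.0495), so that the members called lower were 2, 3 and 2 in these fits.

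**Figure D4:**
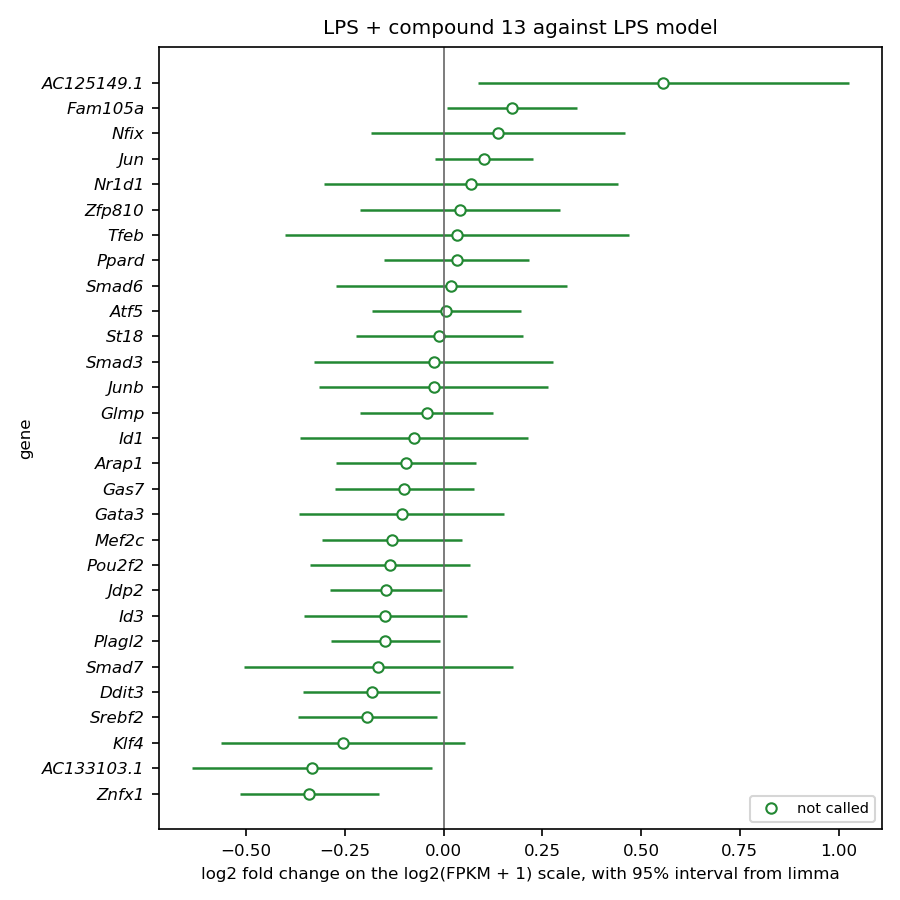
Log2 difference between LPS with compound 13 and the LPS model for the 29 tested factors, on the log2(FPKM + 1) scale, with 95% intervals from limma. All points are open since 0 passed an adjusted p of 0.05, and Znfx1 at −0.34 is the lowest.

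The 21 members below the filter were read from whole reads, recovered for 19 of them. Limma-voom on reads called 18 of the 19 higher with LPS and 1 lower, where 75.9% of all genes with reads were called higher and 20.3% lower. Of the 21, 10 were at 0 in both control libraries. Their levels in the library with compound 13 were of different kinds. A first kind, of 9 genes, kept at least 10 reads there.

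Among these 9, Creb5, a bZIP factor that binds cAMP response elements, had 20 and 16 reads in the control, 161 and 162 under LPS and 136 with compound 13. Tfcp2l1, a grainyhead-related factor, had 58 and 58, then 142 and 133, and 160 reads. Ahr, the sensor of aromatic xenobiotics, had 0 and 0, then 19 and 15, and 11 reads, which makes it at least 11.6-fold higher with LPS when 3 reads over the control group are taken as the floor and the LPS reads as exact, and the 95% counting interval of the ratio starts at 8.97. All 3 were above the control in every LPS-treated library, as were 71% of all tested genes, a set without these low genes. Glis3, a GLI-related zinc finger factor, had 0 and 0, then 21 and 13, and 12 reads. Six4, Notch1, Tbx10 and A530032D15Rik, an SP140-related gene that can share reads with its relatives, were likewise above both control libraries in every LPS-treated library, with 42 to 53 reads of Notch1 against 28 and 13. None of the 9 was called lower with compound 13 by limma-voom, where 20.1% of all genes with reads were. The 9 were grouped by their reads with compound 13, so that this largely restates the choice.

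A second kind had reads in both LPS model libraries and almost none in the others. Elf3, an ETS factor of epithelia, had 10 and 4 reads under LPS, Nr1h4, the bile acid receptor, 12 and 4, and Sox2, a factor of stem cells and neural precursors, 13 and 3, all with 0 in the other 3 libraries. Twist1, a helix-loop-helix factor of mesenchyme, had 12 and 3 reads, Gli3, an effector of Hedgehog signals, 13 and 10, and Tead1, a partner of YAP, 10 and 9, again with 0 elsewhere. Nfib had 15 and 19 reads under LPS and 1 with compound 13, and Zfp991 had 8 and 11 with 1 in a control library. These 8 genes had 93 and 63 reads together under LPS, 1 with compound 13 and 1 and 0 in the control. Limma-voom called 9 of 48 factors lower with compound 13, Znfx1 and these 8, where it called 20.1% of all genes with reads lower. The 8 are grouped here by their few reads with compound 13, so that their calls restate the choice and support nothing. Limma on log2(FPKM + 1) without a filter called 0 of the 50 lower with compound 13, where it called 83 of 1489 genes lower. At an unadjusted p under 0.05, 2 of the 50 were higher and 11 lower, beside 426 of 1489 genes in either direction.

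Folds for these genes set 3 reads over a group as the floor and take the reads under LPS as exact. On this basis Gli3 was at least 7.88-fold higher under LPS than in control cells and at least 4.01-fold lower with compound 13, and Elf3 at least 4.80-fold higher and at least 2.44-fold lower. The exact 95% interval of the ratio to control, which covers counting error only, starts at 5.91 for Gli3 and 3.41 for Elf3. The ratio of compound 13 to LPS model has an upper limit of 0.332 for Gli3 and 0.576 for Elf3. Both genes were grouped by their few reads outside the LPS model libraries. Their folds and limits therefore restate that choice and support nothing. Zeb1, a zinc finger and homeodomain factor of mesenchyme whose reads were not recovered, stood at 0.0835 and 0.0490 FPKM under LPS, 0 and 0.00588 in the control and 0 with compound 13. Zfp532 stood at 0.0486 and 0.0719 FPKM under LPS and 0.0209 FPKM with compound 13. Tead2 had 5 and 16 reads in the control, 32 and 35 under LPS and 7 with compound 13, and the difference with compound 13 was not called (limma-voom adjusted p = 0.059). Cbfa2t3 was the reverse case, with 34 and 47 reads in the control, 6 and 1 under LPS and 1 with compound 13.

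**Figure D5:**
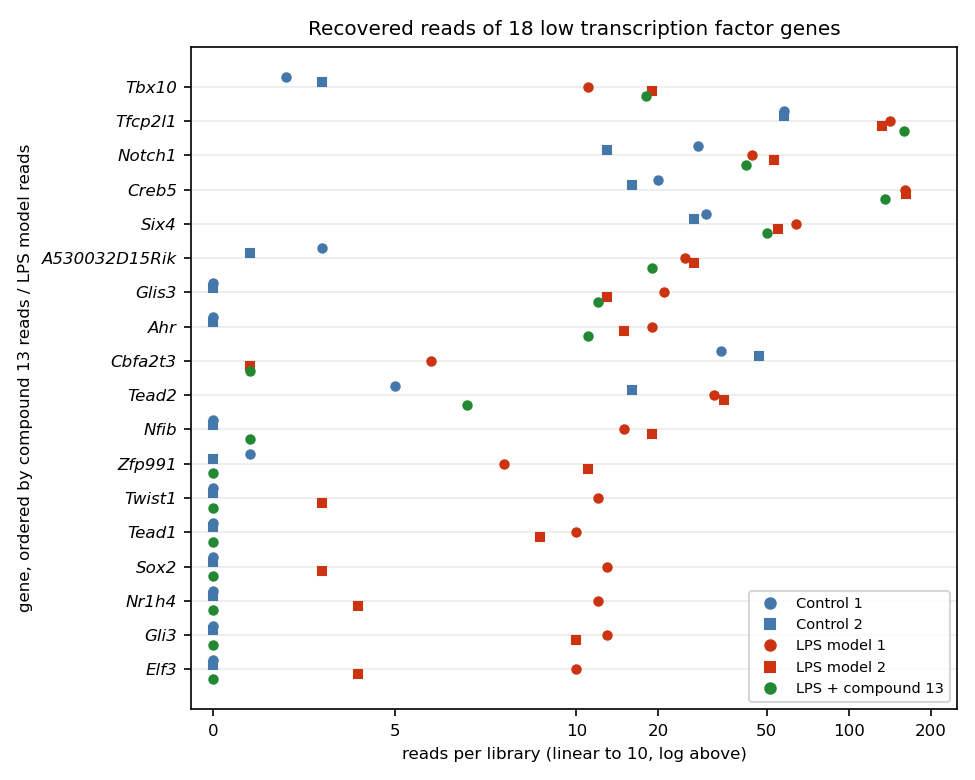
Recovered reads per library (linear to 10, log above) of 18 low factors, ordered by the ratio of reads with compound 13 to reads under LPS. The lowest rows, from Elf3 to Nfib, have reads only in the LPS model libraries apart from single reads, while Ahr and Glis3 have 11 and 12 reads with compound 13.

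Markers of other cell types moved with the second kind. In all, 149 listed genes had more reads in each LPS model library than in any other library and at most 3 reads in every other, among them these 8. The pattern thus held for 149 of 1411 genes with recovered reads and for 8 of 48 factors. The epithelial list had 3 of 11 markers in the table (Krt8, Krt18 and Krt19), with 592 and 364 summed reads under LPS and 0 in the other 3 libraries. The mesenchymal list had 4 of 9 (Sparc, Cav1, Col3a1 and Fn1), with 356 and 257 summed reads under LPS and between 0 and 1 elsewhere. Of the 8 factors, 6 had more reads in LPS model replicate 1 than in replicate 2, and 2 had fewer. Gata3, which shares the list of epithelial factors with Elf3, had 71 reads with compound 13 where the keratins had 0. The part of these markers in the result was not tested. The 2 endothelial markers in the table, Kdr and Cdh5, did not share the pattern, with 40 and 33 summed reads under LPS, 23 with compound 13 and 6 and 2 in the control, and 0 of 5 T cell markers was in the table.

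Promoter letters were compared as a description. RefSeq gave 52 promoters (250 bases before to 50 after a start site, GRCm38.p6) for 36 of the 50 members, and 32851 for all genes. The AP-1 letters TGANTCA, with any base in the middle, were in 4 of 52 (7.69%) and in 7.81% of all promoters, on either strand. The cAMP response element TGACGTCA was in 1 of 52 and in 1.79% of all, and the C/EBP-ATF letters TGATGNAA in 3 of 52 (5.77%) and in 3.97%. The NF-kB consensus was in 3 of 52 (5.77%) and in 8.46% of all. The E-box CANNTG was in 31 of 52 (59.6%) and in 72.3%. Searched motifs can overlap each other, a match is not a bound site, and promoters of the same gene share sequence.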

How the data were processed

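RNA was sequenced with a strand-specific kit from control, LPS and LPS with compound 13 RAW264.7 cells. The authors deposited log2 FPKM values of 1489 genes. Tools named in the submitters' processing notes are DESeq2, HISAT2 2.1.0, SAMtools 1.4 and Trimmomatic 0.32, with mm10 as the build. How reads were counted, by which annotation and strand, and whether genes were selected by p is not given in the sources used here. Values of exactly 0 (562) were read as no fragment counted.

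Depth was recovered as the read number at which FPKM times exon length (GENCODE mouse release 21) gives whole reads. At the depths found, 97.2% to 99.2% of values under 20 reads were whole reads to within 0.1, and no other depth gave more than 51.2%. Reads were recovered for 1411 genes.

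The main test was limma 3.58.1 (R 4.3.3) on log2(FPKM + 1) with a trend, 3 groups and 5 libraries in a single fit, leaving 2 residual and 2.97 prior degrees of freedom. Genes at an FPKM of 1 in 2 libraries or with compound 13 were tested (1053), and adjusted over all of them. Limma-voom on recovered reads was chosen after seeing the data, and it drops genes without whole reads. Replicates of a group differed by more than counting noise (mean variance-to-mean of 3.88 and 2.32, median of 0.924 and 0.837 where counting noise alone gives 0.455), so none was counted as a duplicate. Tables and figures used Python 3.11.15 with pandas 2.3.3 and matplotlib 3.10.9. The calculation was run on simulated data with a variance of 2 times the mean. This is below the mean ratios of 3.88 and 2.32 seen here, and no result above rests on it.

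Members named are Klf4, Id1, Atf5, Ddit3 and Gata3, the 12 largest LPS changes in each direction among called members, up to 4 per factor family, and low members that stood apart in a group, and the others were named after their values were seen. Members, gene lists and alternatives were chosen with earlier results of these data known. Alternatives were another pseudocount, other filters, rescaling, a replicate block, the samples fitted, the moderation, a fold threshold and leaving out each replicate. Values of some listed genes, 1 of them a low member that stays in the counts, are not reported here.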

Additional observations from a re-analysis of the deposited data

How the results depend on the processing

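All values here are log2 fold changes or counts at an adjusted p under 0.05, and the cause of a change was not tested. For LPS model against control, the 17 higher factors became 34 with no filter, 5 by the median of ratios, 7 by quantile normalization, 35 by limma-voom and 8 with a fold threshold of 1, and the 10 lower ones became 5 at an FPKM of 10, 18 by the median of ratios and 4 with that threshold. Genes called in all (1012) became 484 at an FPKM of 10 and 622 with the threshold, and by the median of ratios they split into 408 higher and 408 lower, by quantiles into 463 and 345. The median of the tested factors (0.67) was 0.89 with a pseudocount of 0.1, 0.28 with no filter, 0.86 at an FPKM of 10, 1.26 by limma-voom, −0.31 by the median of ratios and −0.058 by quantile normalization. Leaving out each replicate gave 17 higher, 9 to 10 lower, 987 to 1005 genes in all and a median of 0.65 to 0.79. By the median of ratios the direction turned for Arap1 (−0.30), Ddit3 (−0.26), Glmp (−0.32), Id1 (−0.31), Jun (−0.21), Ppard (−0.059), Smad7 (−0.11), St18 (−0.92) and Znfx1 (−0.54). By quantile normalization it turned for Arap1 (−0.057), Ddit3 (−0.035), Glmp (−0.027), Id1 (−0.058), Jun (−0.047), Junb (−0.26), St18 (−0.69) and Znfx1 (−0.25). Of the turned genes, only Junb, St18 and Znfx1 were called lower by quantile normalization. By the median of ratios all but Ppard and Smad7 were. Of 395 values of single factors over the alternatives, 368 kept direction and call.

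For compound 13 against the LPS model, the 0 lower factors became 2 with only the groups compared, 1 with robust moderation and 9 by limma-voom, and 0 to 3 when a replicate was left out. The 80 genes called in all became 35 with a pseudocount of 0.1, 15 at an FPKM of 10, 0 by the median of ratios (231 at an unadjusted p under 0.05), 8 by quantile normalization, 141 with only the groups compared, 297 by limma-voom, 20 with the fold threshold and 17 to 139 when a replicate was left out (17 and 22 without LPS model replicates 1 and 2, 139 and 137 without control replicates 1 and 2). The median of the factors (−0.07) was 0.070 by the median of ratios and 0.035 by quantile normalization, and −0.09 to −0.074 when a replicate was left out. Single values turned by the median of ratios for Id1 (0.089), Jdp2 (0.021) and Plagl2 (0.017), and by quantile normalization for Gata3 (0.047) and Id1 (0.035). With a replicate left out, Id1 ranged from −0.16 to 0.015 and Atf5 from −0.019 to 0.034, turning without LPS model replicates 1 and 2 in that order. Sample titles number the replicates, but same-numbered libraries did not deviate together (r = −0.02 over 1053 genes). With the replicate block 17 factors were higher and 10 lower for LPS, and 0 factors and 52 genes in all were called for compound 13. Promoter counts were the same before the start site only, except the E-box at 24 of 52. Low factors rest on few reads, and with 2 and 1 libraries a group the precision is limited by their number.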
